A study of Homo sapiens with 6 samples.

Results

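The genes described here were chosen by symbol to gather nucleolar factors that process ribosomal RNA, as every row of the deposited table whose symbol begins with NOP, NOL, NOC, UTP or RRP and a digit, together with BOP1, PES1, WDR12, FBL, DKC1, NCL and NPM1. The rule found 45 of the 11314 genes in the table, and none of it used a measured value. It also takes in a few symbols, such as NOL3, that are not processing factors, and all 45 are called nucleolar genes for short. Messenger RNA was measured in 6 libraries of cells labelled SNU-668, a human line established from a gastric carcinoma, as a subline resistant to erastin, a compound that blocks cystine import and sets off ferroptosis. Of these, 3 libraries carry the title SPIN1, for cells given a short hairpin RNA against SPIN1, and 3 carry the title NC, for cells given a control hairpin. Every library comes from the erastin-resistant subline and every title begins with RLS3, which no label explains. The genotype entries say the reverse of the titles (wild type for those titled SPIN1, SPIN1 knockdown for those titled NC). ALKBH3 stands where SPIN1 would be in the design text. The groups below are those of the titles. Nothing says that the 3 libraries of a title are separate cultures, so the p-values measure the spread between these libraries, which may be technical.

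A ribosome begins as a long precursor RNA made by RNA polymerase I in the nucleolus, which is then cut, trimmed and chemically marked into the 18S, 5.8S and 28S RNAs. Box C/D particles, small nucleolar RNAs with the proteins fibrillarin, NOP56, NOP58 and SNU13, place methyl groups on riboses and help fold the precursor, and box H/ACA particles with dyskerin convert uridine to pseudouridine. A large assembly, the small subunit processome, forms on the 18S part of the precursor, while a separate set of factors including the trio of PES1, BOP1 and WDR12 matures the part that becomes the large subunit. Spindlin 1, the protein of SPIN1, reads methylated histone H3 and has been described in the nucleolus at ribosomal DNA. The libraries were enriched for poly(A) RNA, so they measure the messages of these factors and not ribosomal RNA itself.

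The unit is FPKM, in which the fragments of a gene are divided by its length and by the fragments mapped in that library. Differences are titled SPIN1 minus titled NC on the log2(FPKM + 1) scale, on which changes of low genes come out too small. The word "higher" or "lower" is used for a Benjamini-Hochberg adjusted p under 0.05 in a limma fit over 11061 genes. Median FPKM over all genes was 5.16 to 5.49 in libraries titled SPIN1 and 4.91 to 5.12 in those titled NC. The 13 genes of the mitochondrial genome held 32.2% to 34.9% of all FPKM in the libraries titled SPIN1 and 34.3% to 38.4% in those titled NC. Across genes, which are not independent replicates, log2 values of libraries of one title correlated at 0.963 to 0.977 and those of different titles at 0.920 to 0.943. The table holds no counts, and depth is unknown. SPIN1 itself was at 0.324, 0.629 and 2.49 FPKM in titled SPIN1 replicates 1 to 3, against 0.322, 6.18 and 7.97 FPKM in titled NC replicates 1 to 3. The groups overlap, because titled NC replicate 1 lies at the bottom, and SPIN1 did not pass (difference -1.17, SE 0.77, limma adjusted p = 0.307; two-sided exact permutation p = 0.4, where 0.1 is the smallest that 3 against 3 libraries allow). The level of SPIN1 therefore did not check the titles, and each direction below rests on them. Of 9 markers fixed for a gastric epithelial line, 4 had a row in the table (KRT7, KRT8, KRT18 and EPCAM). They summed to 347 to 428 FPKM in libraries titled SPIN1 and 270.0 to 314 FPKM in those titled NC. EPCAM was at most 1.44 FPKM in every library, and CDH1, KRT19, CLDN4, CLDN7 and ELF3 had no row. Among markers of other cell types, 3 of 8 fibroblast genes (DCN, LUM and COL3A1, summing to 182 to 261 FPKM in titled SPIN1 and 176 to 202 FPKM in titled NC libraries), 3 of 8 leukocyte genes (LYZ, CD68 and CD14, 91.3 to 156 FPKM in titled SPIN1 and 169 to 182 FPKM in titled NC) and 1 of 4 endothelial genes (CDH5, 0.348 to 1.22 FPKM in titled SPIN1 and 1.40 to 1.73 FPKM in titled NC) had a row. COL3A1, a collagen of fibroblasts, was at 166 to 249 FPKM in libraries titled SPIN1 and 172 to 197 FPKM in those titled NC. With EPCAM this low and COL3A1 this high, these markers did not settle the labelled epithelial identity of the cells. KRT8, KRT18, LUM and DCN were higher and LYZ and CD14 lower, and their part in the results below was not tested. In bulk RNA, fewer cells of one kind and less RNA per cell cannot be told apart.

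The nucleolar genes did not move as a block. NOP56 (1.54-fold), NOC2L (1.41-fold) and NOL4L (1.51-fold) were higher in libraries titled SPIN1. Lower were NOP2 (2.14-fold), NOP53 (1.73-fold), UTP14A (1.61-fold), RRP12 (1.47-fold) and PES1 (1.28-fold), each a ratio of mean FPKM. That is 3 of 45 higher, or 6.67%, where 17.3% of all genes tested were higher, and 5 of 45 lower, or 11.1%, where 10.3% of all genes tested were lower. The other 37 did not pass the test. Of all calls over all genes, 62.7% were higher, a share that was 50.4% after quantile normalization; the 8 calls among the nucleolar genes were kept there with the same direction. The share lower is near that of all genes and the share higher is below it; whether either differs from it was not tested. Differences were positive for 23 genes and negative for 22, with a median of 0.03, beside 0.05 over all genes tested. Their median size without regard to sign was 0.18, beside 0.27 over all genes. All libraries titled SPIN1 lay above all titled NC for 11 of the 45 (24.4%, beside 27.2% of all genes) and below them for 7 (15.6%, beside 18.8%).

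**Figure D1:**
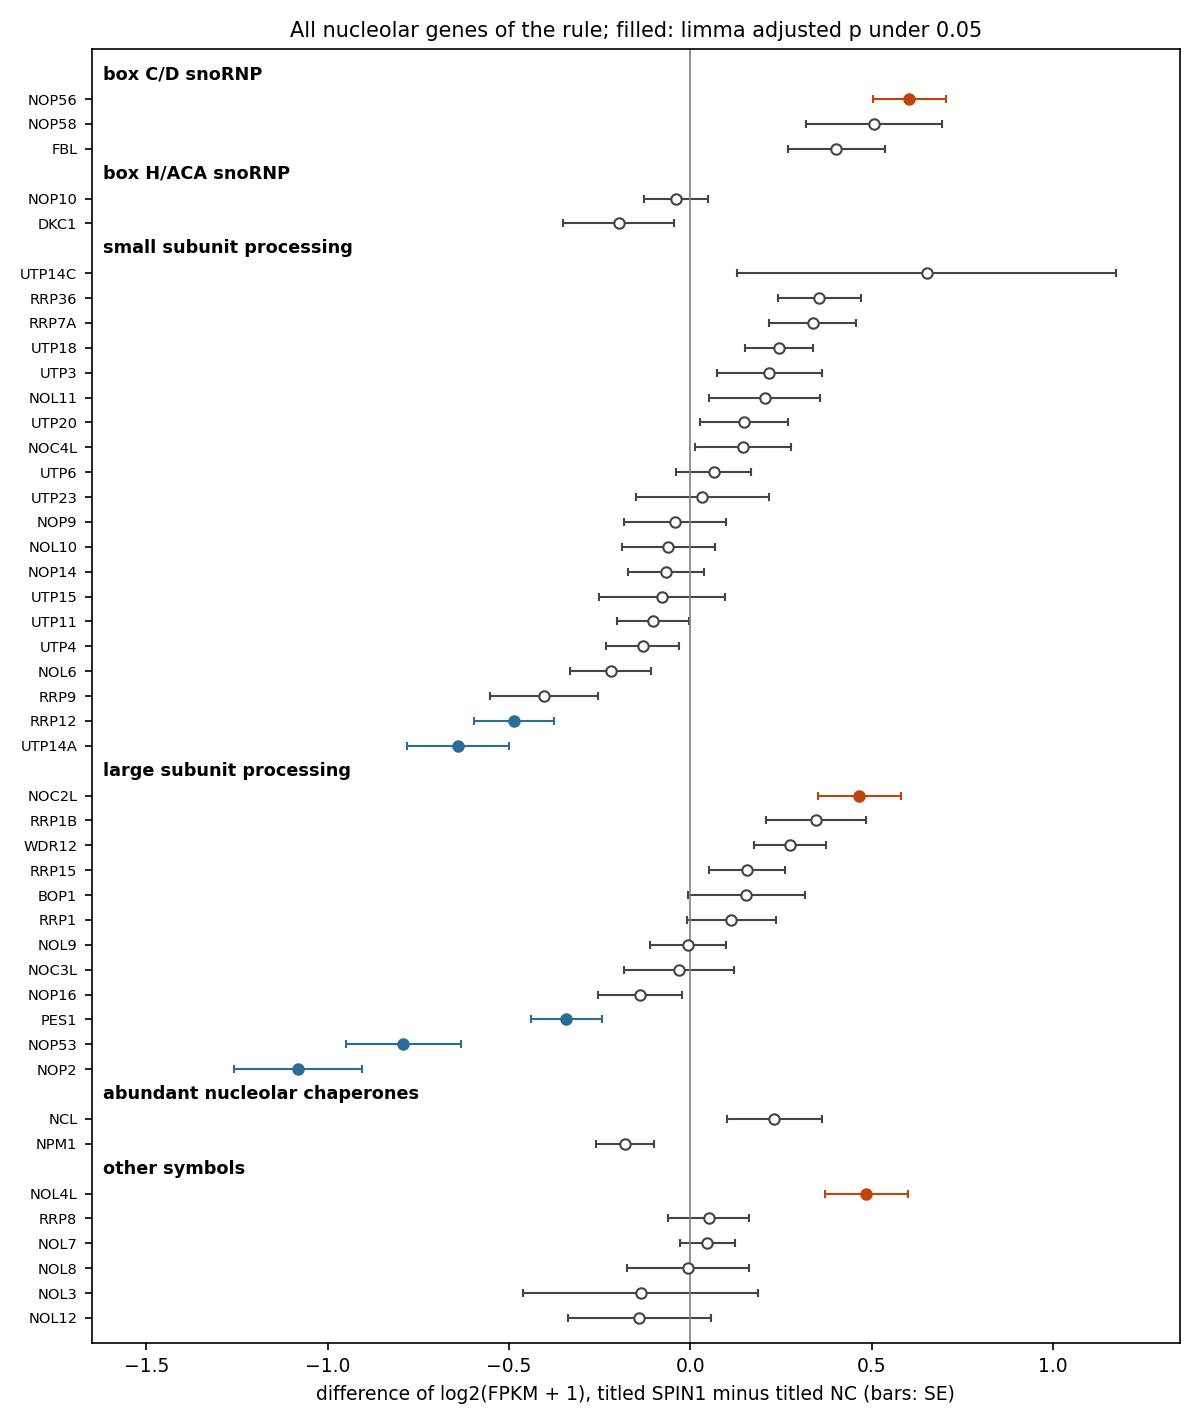
Difference of log2(FPKM + 1), titled SPIN1 minus titled NC, for each of the 45 nucleolar genes by role, with bars for the SE; filled points passed limma's test and open points did not. Points lie on both sides of 0 in the small and the large subunit group, from -1.08 for NOP2 to 0.65 for UTP14C, whose SE is the widest.

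Start regions of 10 of the genes are shown first, 4 for their place in the test and 6 for an E-box close to the start site. Of these 6, PES1 is the one that passed the test. Each line gives 100 bases of the RefSeq promoter (GRCh38.p14), 70 before the start site and 30 from it, read 5′ to 3′ on the strand of the gene, with capitals for matches to any of 4 motifs on either strand. These are the E-box CACGTG, bound by MYC and related factors; the E2F motif TTTCCCGC or TTTGGCGC; the ETS motif CCGGAAG; and the YY1 motif AAGATGGCG. The first 4 genes have the smallest adjusted p of the box C/D, box H/ACA, small subunit and large subunit groups among genes with an entry, and show no match in this window. Their windows are chr20:2652562-2652661, plus strand for NOP56, chrX:154762794-154762893, plus strand for DKC1, chrX:129906094-129906193, plus strand for UTP14A and chr12:6568262-6568361, minus strand for NOP2.
NOP56: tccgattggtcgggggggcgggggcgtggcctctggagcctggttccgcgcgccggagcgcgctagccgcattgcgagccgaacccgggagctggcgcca
DKC1: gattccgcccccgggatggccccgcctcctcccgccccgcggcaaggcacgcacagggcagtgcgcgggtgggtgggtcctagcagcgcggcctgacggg
UTP14A: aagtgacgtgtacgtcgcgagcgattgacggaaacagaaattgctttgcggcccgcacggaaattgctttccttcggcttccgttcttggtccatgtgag
NOP2: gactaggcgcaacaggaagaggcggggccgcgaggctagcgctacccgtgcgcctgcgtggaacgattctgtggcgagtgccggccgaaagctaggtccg
The next 6 were chosen after the motif positions were seen, to show an E-box close to the start. They lie at chr19:39846350-39846449, minus strand (FBL); chr22:30591881-30591980, minus strand (PES1); chr3:51941875-51941974, minus strand (RRP9); chr17:51260476-51260575, plus strand (UTP18); chr15:34343107-34343206, minus strand (NOP10); and chr9:33473895-33473994, minus strand (NOL6).
FBL: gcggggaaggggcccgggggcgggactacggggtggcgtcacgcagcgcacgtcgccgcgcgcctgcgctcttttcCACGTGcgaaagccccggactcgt
PES1: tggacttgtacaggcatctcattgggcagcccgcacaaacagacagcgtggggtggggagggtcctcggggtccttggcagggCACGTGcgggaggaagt
RRP9: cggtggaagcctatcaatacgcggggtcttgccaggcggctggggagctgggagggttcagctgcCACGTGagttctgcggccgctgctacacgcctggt
UTP18: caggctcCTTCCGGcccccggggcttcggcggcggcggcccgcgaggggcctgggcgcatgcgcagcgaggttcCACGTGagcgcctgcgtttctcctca
NOP10: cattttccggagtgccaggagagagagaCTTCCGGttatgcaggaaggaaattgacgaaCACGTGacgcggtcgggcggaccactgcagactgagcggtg
NOL6: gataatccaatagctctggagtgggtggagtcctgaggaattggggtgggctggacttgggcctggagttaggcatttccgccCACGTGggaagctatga

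Over the full entries, which run from 250 bases before the start to 50 after it, 39 of the 45 genes had a sequence, and BOP1, NOL10, NOP58, RRP12, RRP1B and UTP23 did not. An E-box was found in 14 of the 39 (35.9%), beside 8.77% of the 27305 genes with an entry, 13.1% of the 8678 among them that were tested here, and 29.3% of 99 other ribosome assembly genes of the lists named below. In 11 of the 39 (28.2%) it began within 20 bases of the start site, beside 1.48% of all genes with an entry, 2.60% of those tested and 12.1% of the 99 other ribosome assembly genes. Counted from the start base as 0, it began at -16 in UTP4, -11 in NOP10, -10 in UTP20, -9 in NOL8, -5 in RRP9, 4 in UTP18, 6 in FBL, 13 in PES1 and NOL6, 15 in NOP14 and 19 in NOC3L. NOP10 and UTP18 held another one upstream, at -170 and -89. In the remaining 3 genes it began at 35 (NOP2), -149 (NOL7) and -241 (UTP14A), outside the windows printed. The limit of 20 bases was not part of the plan that fixed the motifs, and it lies just beyond the 11 positions above (-16 to 19). The ETS motif was found in 14 of the 39 (35.9%), beside 12.2% of all genes with an entry, 23.9% of those tested and 42.4% of the 99 other ribosome assembly genes, a share above that of the nucleolar genes. The E2F motif was found in PES1 alone (2.56%, beside 2.75%, 4.87% and 4.04%), and the YY1 motif in NOP53 alone (2.56%, beside 2.14%, 5.22% and 11.1% in the same sets). CACGTG reads the same on both strands, and matches of different motifs did not overlap in the 39 genes. By call, an E-box was found in 0 of 3 higher genes, in 3 of 4 lower genes with an entry (NOP2, PES1 and UTP14A), and in 11 of 32 that did not pass. These are matches of letters, with no measure of binding in the data.

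**Figure D2:**
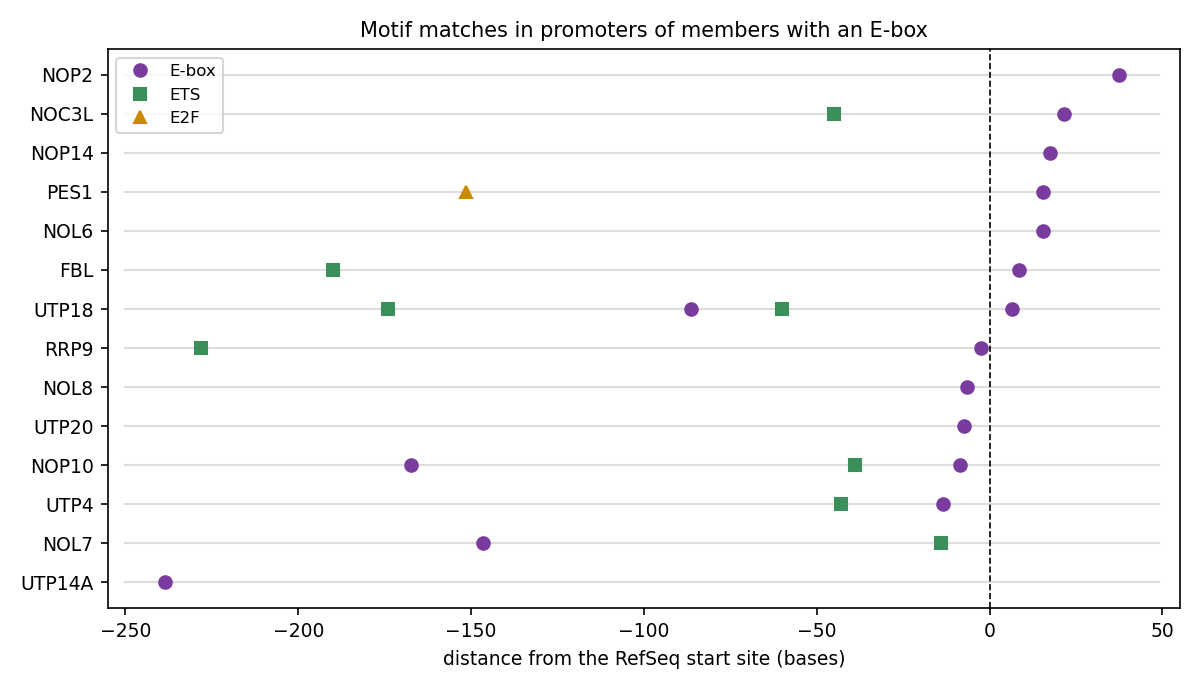
Positions of motif matches, in bases from the RefSeq start site (dashed line), in the 14 nucleolar genes with an E-box; circles are E-boxes, squares ETS and the triangle E2F. Circles gather at the start, between 16 bases before it and 19 after it for 11 genes.

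For the messages of the catalytic and scaffold proteins of box C/D particles, every library titled SPIN1 lay above every library titled NC. That separation was found for 27.2% of all genes tested, and only NOP56 of these 3 genes passed the test. NOP56, a scaffold of the particle (ENSG00000101361.16_3, hg19 chr20:2632791-2639039, plus strand), was at 47.0, 44.2 and 54.6 FPKM in titled SPIN1 replicates 1 to 3, against 30.8, 31.0 and 32.7 FPKM in titled NC replicates 1 to 3. The groups are well apart, and NOP56 was higher by 0.60 (SE 0.10, limma adjusted p = 0.00695), in each of the 6 fits without 1 library too. NOP58, its partner scaffold, was at 23.7, 25.2 and 37.1 FPKM in libraries titled SPIN1 and at 16.7, 20.8 and 21.3 FPKM in those titled NC. FBL, fibrillarin, the methyltransferase of the particle, was at 101, 123 and 98.5 FPKM in libraries titled SPIN1 and at 88.9, 69.1 and 85.6 FPKM in those titled NC. Neither overlaps between the groups, yet neither passed: the difference was 0.51 (SE 0.19, limma adjusted p = 0.0904) for NOP58, where titled SPIN1 replicate 3 stands above its group, and 0.40 (SE 0.13, adjusted p = 0.0652) for FBL. With weights per library FBL passed (0.65, limma adjusted p = 0.00403), and with the replicate block NOP58 did (0.51, adjusted p = 0.0435). The weights were 3.57 for titled SPIN1 replicate 2 and 3.12 for titled NC replicate 2, and 0.314 to 1.17 for the other libraries. For FBL these replicates 2 are the highest and the lowest library. Without titled SPIN1 replicate 3 the difference of NOP58 was 0.31. Over these 3 genes the mean deviation from each gene's own average was 0.13, 0.22 and 0.40 on the log2 scale in titled SPIN1 replicates 1 to 3, and -0.29, -0.30 and -0.17 in titled NC replicates 1 to 3.

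The remaining core protein of the particle, SNU13, which binds the kink in the guide RNA and also serves the spliceosome, is outside the symbol rule. It was at 25.6, 27.4 and 26.8 FPKM in libraries titled SPIN1 and at 36.0, 30.5 and 33.3 FPKM in those titled NC. It was lower by 0.31 on the log2 scale, in the direction opposite to its partners (SE 0.09, limma adjusted p = 0.0483). That call was lost in each of the 6 fits without 1 library (adjusted p 0.0731 to 0.132). With all 6 libraries it was lost without trend and robust moderation (limma adjusted p = 0.05675) and with the replicate block (0.06915). The other settings kept it. The ratio of NOP56 to SNU13 within a library, from which the scaling of the library drops out, was 1.83, 1.61 and 2.04 in titled SPIN1 libraries and 0.857, 1.01 and 0.980 in titled NC libraries. For FBL over SNU13 it averaged 4.04 ± 0.406 in titled SPIN1 libraries and 2.43 ± 0.154 in titled NC libraries (SD, n = 3 each). Neither ratio overlaps between the groups; they were chosen after the values were seen and carry no test. Between the scaffold and the enzyme the ratio did overlap, at 0.459 ± 0.0971 in titled SPIN1 libraries and 0.392 ± 0.0513 in titled NC libraries for NOP56 over FBL.

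Messages of box H/ACA particles gave no call in the fit reported. DKC1, dyskerin, the pseudouridine synthase that also holds telomerase RNA, was at 15.4, 12.98 and 19.6 FPKM in libraries titled SPIN1, against 17.4, 17.8 and 19.7 FPKM in those titled NC. The groups overlap (difference -0.20, SE 0.15, limma adjusted p = 0.380). The difference of DKC1 was -0.07 without titled SPIN1 replicate 2, -0.35 without titled SPIN1 replicate 3. It passed once libraries were weighted (-0.38, limma adjusted p = 0.0347). NOP10, a small protein that binds dyskerin, was at 257, 277 and 238 FPKM in libraries titled SPIN1 and at 276, 273 and 245 FPKM in those titled NC. It had the highest level of the 45 genes in each library and did not pass (difference -0.04, SE 0.09, adjusted p = 0.770), and the sign of that difference turned after quantile normalization (0.02). The other core proteins, GAR1 and NHP2, are outside the rule and differed by 0.17 (SE 0.14, limma adjusted p = 0.393) and 0.27 (SE 0.09, adjusted p = 0.0683). Within a library, NOP56 stood at 3.04, 3.41 and 2.78 times DKC1 in those titled SPIN1 and at 1.78, 1.74 and 1.66 times DKC1 in those titled NC. FBL over DKC1 overlapped, at 6.58, 9.46 and 5.02 in libraries titled SPIN1 and 5.11, 3.88 and 4.36 in those titled NC. Both ratios were chosen after the values were seen and carry no test.

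**Figure D3:**
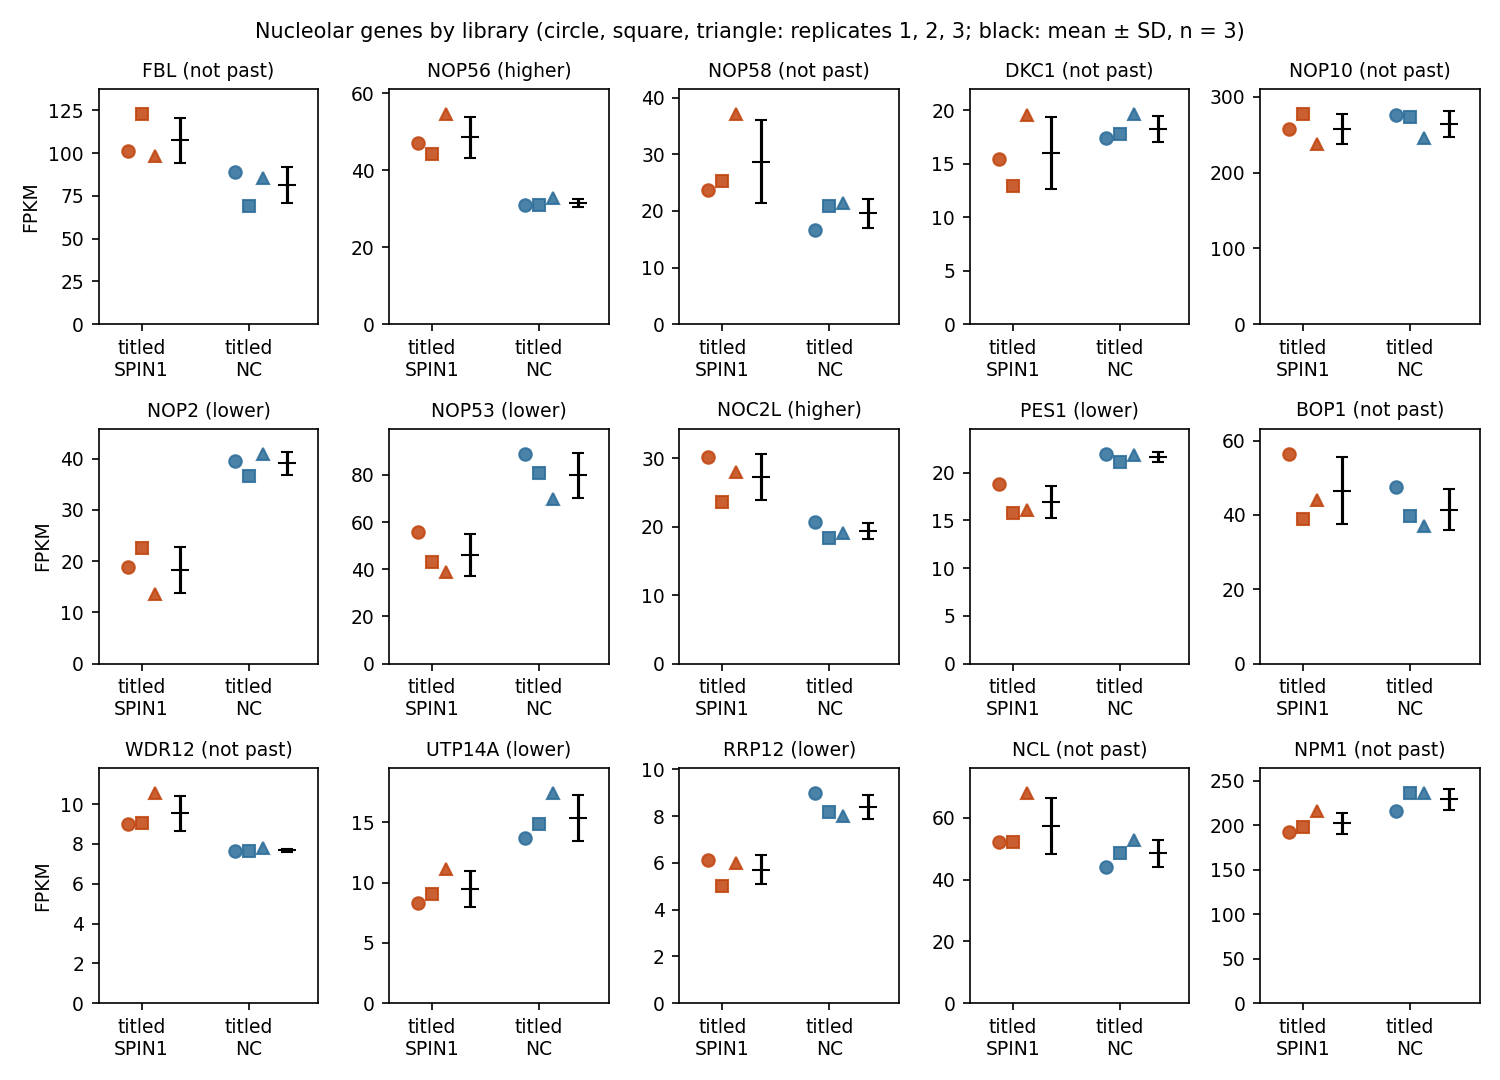
FPKM of 15 nucleolar genes in each library, titled SPIN1 at left and titled NC at right of each panel, with the mean ± SD (n = 3) beside the points and each axis starting at 0. NOP2, at 13.5 to 22.5 FPKM in libraries titled SPIN1 and 36.7 to 41.0 FPKM in those titled NC, has the largest fold difference, and DKC1, NOP10, BOP1 and NCL overlap.

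The largest decrease and the second largest both belonged to large subunit factors. NOP2, also named NSUN1, puts a methyl group on a cytosine of 28S RNA and was first known as a proliferation antigen. Its message (ENSG00000111641.11_3, hg19 chr12:6666029-6677857, minus strand) stood at 18.9, 22.5 and 13.5 FPKM in libraries titled SPIN1, against 39.6, 36.7 and 41.0 FPKM in those titled NC. Every library titled SPIN1 lies well under every one titled NC, and NOP2 was lower by 1.08 on the log2 scale (SE 0.18, limma adjusted p = 0.00638). NOP53 brings the RNA exosome to the precursor of the large subunit and is also known as a regulator of p53. It (ENSG00000105373.18_3, hg19 chr19:48248779-48260315, plus strand) was at 55.9, 43.3 and 38.8 FPKM in libraries titled SPIN1 and at 89.0, 80.6 and 69.6 FPKM in those titled NC. It was lower by 0.79 (SE 0.16, limma adjusted p = 0.0126). Both calls were kept in all 6 fits without 1 library, with adjusted p of at most 0.0272 and 0.0467.

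PES1, BOP1 and WDR12 work as 1 complex, and their differences had both signs. PES1 (ENSG00000100029.17_2, hg19 chr22:30972612-31003070, minus strand) was at 18.9, 15.8 and 16.1 FPKM in libraries titled SPIN1 and at 22.0, 21.1 and 21.9 FPKM in those titled NC. It was lower by 0.34 (SE 0.10, limma adjusted p = 0.0419), a call that only the fit without titled SPIN1 replicate 1 kept (adjusted p 0.0154, and 0.0969 to 0.129 in the other 5). WDR12 was at 9.02, 9.04 and 10.5 FPKM in libraries titled SPIN1, above the 7.64, 7.63 and 7.78 FPKM in those titled NC, and did not pass (difference 0.28, SE 0.10, limma adjusted p = 0.0814). BOP1 was at 56.5, 39.0 and 44.0 FPKM in libraries titled SPIN1 and at 47.6, 39.6 and 37.0 FPKM in those titled NC. Its groups overlap (difference 0.16, SE 0.16, adjusted p = 0.512). The ratio of WDR12 to PES1 within a library was 0.478, 0.571 and 0.654 in those titled SPIN1 and 0.347, 0.362 and 0.355 in those titled NC. That of BOP1 to PES1 averaged 2.73 ± 0.266 in libraries titled SPIN1 and 1.91 ± 0.238 in those titled NC (SD, n = 3 each). Neither ratio overlaps. These ratios, too, were chosen after the values were seen and carry no test.

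NOC2L is a factor of large subunit precursors that also binds p53 and blocks histone acetylation. Its message (ENSG00000188976.10_2, hg19 chr1:879584-894689, minus strand) was at 30.2, 23.5 and 28.0 FPKM in libraries titled SPIN1 and at 20.6, 18.4 and 19.1 FPKM in those titled NC. The groups do not overlap and NOC2L was higher by 0.47 (SE 0.11, limma adjusted p = 0.0260), a call that was lost without titled SPIN1 replicate 3 (adjusted p = 0.0736), titled NC replicate 2 (0.0957) or titled NC replicate 3 (0.0801). Its locus overlaps SAMD11 on the opposite strand, and the sources used here do not say whether strand was used in counting. RRP1B, which binds the phosphatase PP1 in the nucleolus, was at 7.47, 8.87 and 10.8 FPKM in libraries titled SPIN1, against 6.53, 6.99 and 6.97 FPKM in those titled NC (difference 0.35, SE 0.14, adjusted p = 0.108). It passed without titled SPIN1 replicate 1 (0.46, adjusted p = 0.0329). The other 5 of the 12 large subunit genes, RRP15, RRP1, NOP16, NOC3L and NOL9, had differences within the range given below.

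Small subunit factors gave 2 calls among 20 genes, both lower, a share near the 10.3% of all genes tested that were lower. None of the 20 was higher, where 17.3% of all genes tested were. UTP14A, whose yeast counterpart works with a helicase to release the U3 small nucleolar RNA (ENSG00000156697.12_3, hg19 chrX:129040097-129063737, plus strand), was at 8.28, 9.04 and 11.2 FPKM in libraries titled SPIN1, against 13.7, 14.9 and 17.4 FPKM in those titled NC. It was lower by 0.64 (SE 0.14, limma adjusted p = 0.0173). RRP12, which helps subunits leave the nucleus (ENSG00000052749.13_4, hg19 chr10:99116115-99185833, minus strand), was at 6.14, 5.02 and 5.99 FPKM in libraries titled SPIN1, against 8.98, 8.19 and 8.002 FPKM in those titled NC. It was lower by 0.49 (SE 0.11, adjusted p = 0.0189). In neither do the groups overlap. The call of UTP14A was lost without titled SPIN1 replicate 2, titled NC replicate 2 or titled NC replicate 3 (adjusted p 0.0553 to 0.0600), and that of RRP12 without titled SPIN1 replicate 2 or any 1 library titled NC (0.0516 to 0.0655).

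RRP9, the protein that marks U3 particles, was at 45.7, 33.2 and 35.2 FPKM in libraries titled SPIN1, against 57.6, 46.0 and 47.6 FPKM in those titled NC. The highest library titled SPIN1 lies just under the lowest titled NC, and RRP9 did not pass (difference -0.40, SE 0.15, limma adjusted p = 0.0905). It passed without titled SPIN1 replicate 1 (-0.54, adjusted p = 0.0248) and after quantile normalization (-0.48, adjusted p = 0.0451). RRP9 also passed with weights per library (-0.46, limma adjusted p = 0.0076) and with the replicate block (-0.40, adjusted p = 0.0203). RRP36 was at 21.4, 25.8 and 27.8 FPKM in libraries titled SPIN1, all above the 19.2, 18.7 and 19.7 FPKM in those titled NC. It did not pass (difference 0.36, SE 0.11, adjusted p = 0.0601), but did without titled SPIN1 replicate 1 (0.46, adjusted p = 0.0136). RRP7A, a further processome factor, differed by 0.34 (SE 0.12, adjusted p = 0.0800) and UTP18 by 0.25 (SE 0.09, adjusted p = 0.1005), and neither overlaps between the groups. UTP18 was the most even gene in the libraries titled SPIN1, at 33.6, 34.1 and 34.1 FPKM, against 25.5, 30.4 and 29.7 FPKM in those titled NC. NOL6, a large scaffold of the processome, differed by -0.22 (SE 0.11, adjusted p = 0.189).

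UTP14C had the largest SE of the 45, at 2.67, 1.74 and 3.77 FPKM in libraries titled SPIN1, against 0.457, 4.40 and 0.573 FPKM in those titled NC. A single library, titled NC replicate 2, lies far above the other 2 of its title. The difference was 0.65 (SE 0.52, limma adjusted p = 0.398), 1.26 without that library (adjusted p = 0.0231) and -0.23 with weights per library. UTP14C is a copy of UTP14A that arose by retroposition and its locus overlaps ALG11 on the same strand, so reads may have been split between these genes and its values are uncertain. The same caution holds for NPM1, since GENCODE 29 lists 45 pseudogenes named after it, 3 named after NOP56 and 2 each named after PES1, NCL and NOC2L.

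The abundant nucleolar proteins nucleolin and nucleophosmin gave no call. NCL, which binds precursor RNA and chromatin of ribosomal genes, was at 52.2, 52.2 and 67.9 FPKM in libraries titled SPIN1 and at 44.1, 48.6 and 52.8 FPKM in those titled NC. Its libraries overlap between the titles (difference 0.23, SE 0.13, limma adjusted p = 0.237). NPM1, a chaperone of histones and of ribosomal proteins that also holds p53 regulators in the nucleolus, was at 193, 198 and 216 FPKM in libraries titled SPIN1 and at 216, 236 and 236 FPKM in those titled NC. Titled SPIN1 replicate 3 and titled NC replicate 1 nearly meet (215.92 and 215.99 FPKM), and NPM1 did not pass (difference -0.18, SE 0.08, limma adjusted p = 0.141), although it did after median scaling (-0.25, adjusted p = 0.0469).

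The 6 remaining symbols, NOL4L, NOL3, NOL7, NOL8, NOL12 and RRP8, were kept out of the groups above. NOL4L (ENSG00000197183.14_4, hg19 chr20:31030862-31172876, minus strand) was at 4.98, 6.36 and 6.23 FPKM in libraries titled SPIN1, all above the 3.82, 3.92 and 3.89 FPKM in those titled NC. It was higher by 0.49 (SE 0.11, limma adjusted p = 0.0224), a call that only the fit without titled SPIN1 replicate 1 kept (adjusted p 0.0599 to 0.0789 in the other 5). NOL3, a cytoplasmic inhibitor of apoptosis despite its name, was at 20.3, 8.83 and 8.37 FPKM in libraries titled SPIN1 and at 15.1, 11.8 and 11.7 FPKM in those titled NC. Replicate 1 was the highest library of each title, and NOL3 did not pass (difference -0.14, SE 0.32, limma adjusted p = 0.785), but it did without titled SPIN1 replicate 1 (-0.52, adjusted p = 0.0379). With these 6 genes left out, 2 of 39 were higher (5.13%) and 5 of 39 lower (12.8%), beside 17.3% and 10.3% of all genes tested.

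The 22 other genes, NOL3 among them, had differences from -0.14 to 0.22, with adjusted p of at least 0.310, and the groups overlapped for 21 of them. The exception was RRP15, a large subunit factor, with 4.4965, 4.99 and 5.41 FPKM in libraries titled SPIN1 and 4.05, 4.49 and 4.49 FPKM in those titled NC. Levels over the 45 genes were widely spread. The lowest mean was 1.93 ± 0.584 FPKM for UTP15, a processome subunit, in libraries titled SPIN1, and 1.81 ± 2.24 FPKM for UTP14C in those titled NC. NOP10 had the highest, with 257 ± 19.7 FPKM in libraries titled SPIN1 and 264 ± 16.8 FPKM in those titled NC for NOP10 (SD, n = 3 each). Summed over the 45 genes, the libraries titled SPIN1 stood at 1327, 1311 and 1346 FPKM and those titled NC at 1360, 1340 and 1337 FPKM, so the groups overlap in the sum. The relative spread within a title had a median of 12.5% in libraries titled SPIN1 and 7.998% in those titled NC.

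The rest of the ribosome assembly machinery, from lists of genes by textbook role, likewise gave calls in both directions. The counts of each list stand beside 17.3% higher and 10.3% lower over all genes tested. Of 15 genes of RNA polymerase I and its factors, 0 were higher and 1 was lower: TAF1D, a subunit of the promoter selectivity factor, at 3.77, 4.54 and 3.81 FPKM in libraries titled SPIN1 and 5.59, 7.17 and 7.49 FPKM in those titled NC (limma adjusted p = 0.0171), a call lost in 3 of the 6 fits without 1 library. TTF1, which ends transcription by RNA polymerase I, had the next smallest p of this list, with a difference of 0.39 (limma adjusted p = 0.0651), and UBTF, the factor that opens ribosomal genes, differed by 0.27 (adjusted p = 0.0837). Of 34 other small subunit processome factors, 2 were higher (the helicase DDX47, 1.60-fold, and the processome scaffold PWP2, 2.25-fold). The 4 that were lower were the helicase DDX10 (1.51-fold), PNO1 (1.38-fold), NOB1, the nuclease that makes the end of 18S RNA (1.28-fold), and SNU13 (1.25-fold). DDX10 had the smallest adjusted p of these (0.0109) and was the one whose call was kept in each fit without 1 library.

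Among 42 other large subunit factors, 3 were higher (7.14%) and 2 lower (4.76%), both shares below those of all genes tested. FTSJ3, a ribose methyltransferase of the precursor, was at 8.79, 7.84 and 9.66 FPKM in libraries titled SPIN1, against 5.11, 4.76 and 4.99 FPKM in those titled NC (limma adjusted p = 0.00477). RSL1D1, a nucleolar protein with a ribosomal protein fold, was lower at 36.8, 36.4 and 39.2 FPKM in libraries titled SPIN1, against 52.0, 51.5 and 52.0 FPKM in those titled NC (adjusted p = 0.00668). The others were LAS1L, which cuts the spacer between 5.8S and 28S RNA (1.86-fold higher), MRTO4 (1.36-fold higher) and RSL24D1 (1.41-fold lower). FTSJ3, RSL1D1 and LAS1L kept their calls in each fit without 1 library. Of 14 other proteins that build or serve snoRNA particles, TCOF1, treacle, which links RNA polymerase I to modification, was higher at 7.01 ± 0.680 FPKM in libraries titled SPIN1 and 4.48 ± 0.0698 FPKM in those titled NC (n = 3 each, SD; adjusted p = 0.00984, limma), and 0 were lower. ZNHIT3, an assembly factor of box C/D particles, differed by 0.30 (adjusted p = 0.0659).

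The nuclear RNA exosome and its partners, which trim 5.8S RNA and clear spacer fragments, were positive in 13 of 15 genes, beside 6077 of 11061 over all genes tested. Of the 15, 3 were higher (20%) and 0 lower, beside 17.3% and 10.3% of all genes tested. MPHOSPH6, an exosome cofactor for 5.8S RNA, was at 10.6, 12.97 and 11.2 FPKM in libraries titled SPIN1, against 5.67, 6.88 and 6.90 FPKM in those titled NC (limma adjusted p = 0.00610). The nuclease XRN2 was 1.32-fold higher and the exosome cap subunit EXOSC3 1.57-fold higher, and both calls were lost in 5 of the 6 fits without 1 library and after quantile normalization (limma adjusted p = 0.0505 for XRN2 and 0.0567 for EXOSC3). The median difference of the list was 0.30, and 8 of 15 genes (53.3%, beside 27.2% of all genes) had every library titled SPIN1 above every one titled NC. Pooled over these 5 lists, 9 of 120 genes were higher (7.50%) and 7 lower (5.83%), beside 17.3% and 10.3% of all genes tested, with a median difference of 0.04. DIEXF, the older symbol under which UTP25 stands in the table, is outside the rule and did not pass (difference -0.23, limma adjusted p = 0.216).

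**Figure D4:**
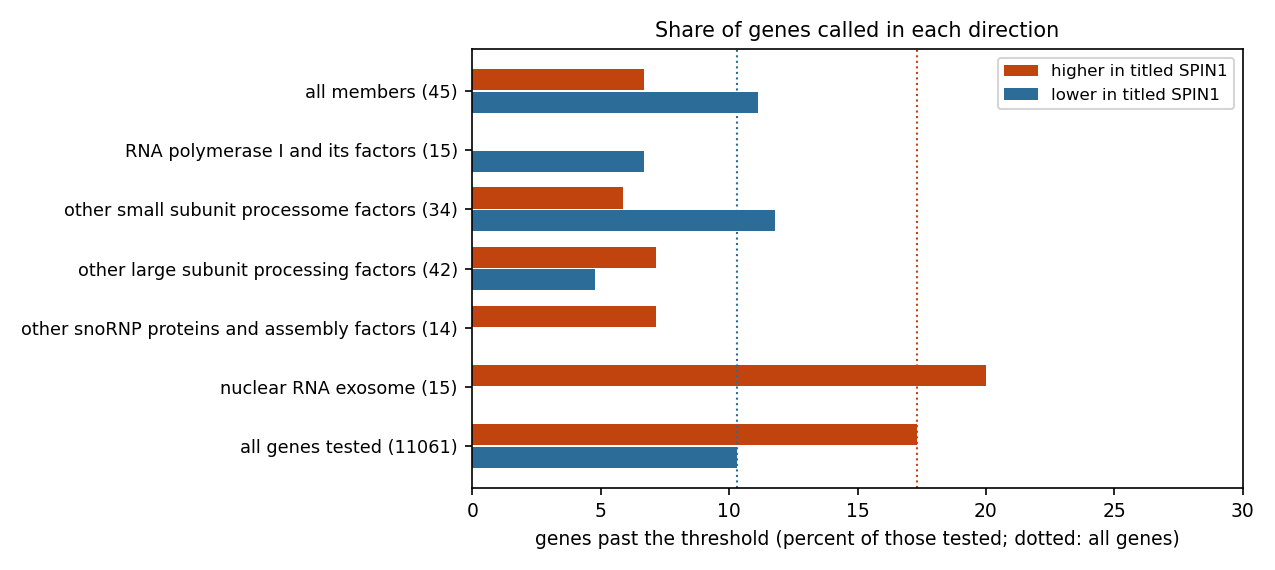
Percent of tested genes called higher (upper bar) or lower (lower bar) in libraries titled SPIN1, for the 45 nucleolar genes, 5 lists of other ribosome assembly genes and all 11061 genes, with dotted lines at 17.3% and 10.3% for all genes. The share called higher is 20% in the exosome list (3 of 15), near the 17.3% of all genes, and is below that of all genes in the other lists.

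MYC, the best known activator of nucleolar genes through E-boxes, was at 63.4, 75.2 and 97.0 FPKM in libraries titled SPIN1 and at 54.8, 65.7 and 4.45 FPKM in those titled NC. Titled NC replicate 3 stands far below the other 5 libraries, and MYC did not pass (difference 1.52, SE 0.93, limma adjusted p = 0.271; 0.36 without that library, adjusted p = 0.259). Among the 10 tested genes of the MYC and MAX network, MXD3, a MAX partner that represses E-box genes, was higher (5.89 ± 0.614 FPKM in libraries titled SPIN1 and 1.57 ± 0.146 FPKM in those titled NC; n = 3 each, SD; adjusted p = 0.000675, limma). MGA, another MAX partner, was lower (1.39 ± 0.211 FPKM in libraries titled SPIN1, 2.17 ± 0.109 FPKM in those titled NC, limma adjusted p = 0.0301). These were the only calls of the list, 1 of 10 in each direction (10%), beside 17.3% higher and 10.3% lower over all genes tested.

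**Figure D5:**
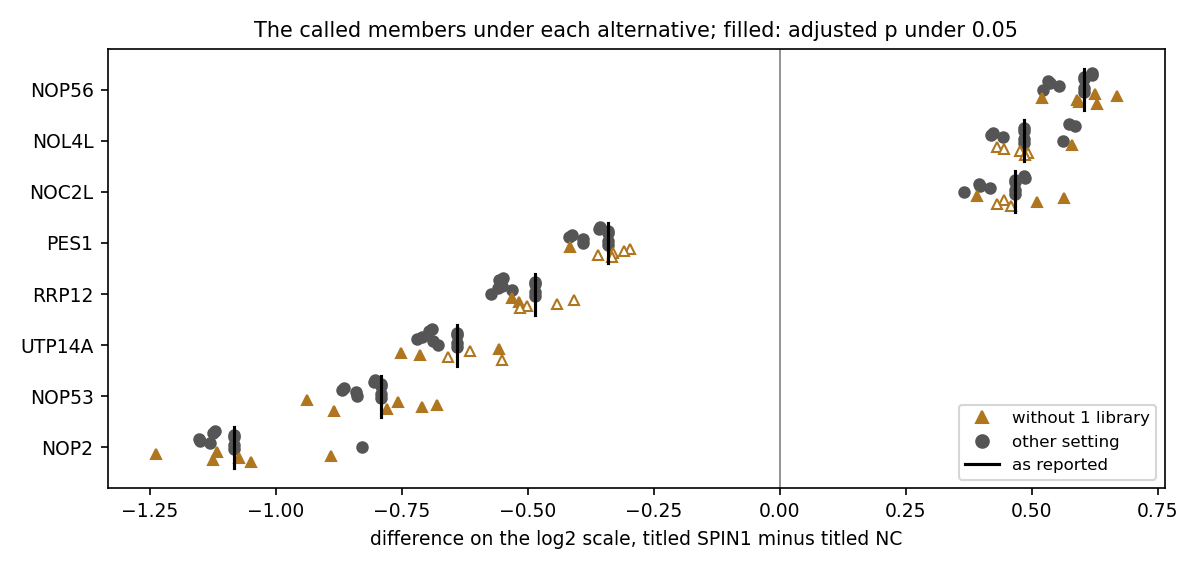
Difference on the log2 scale for the 8 called nucleolar genes as reported (black line) and under each of 16 alternatives, with triangles for fits without 1 library, circles for other settings and filled symbols for an adjusted p under 0.05. No symbol crosses 0, and open triangles appear for each gene but NOP56, NOP53 and NOP2.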

How the data were processed

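RNA was selected with oligo(dT) and sequenced as paired ends after a stranded KAPA preparation, per the labels' protocols, which gave 6 libraries. The tools FastQC, cutadapt, HISAT2 and StringTie and the build hg19 come from the submitters' processing notes, which give no version. Each deposited value is the FPKM of a gene in 1 library, per the file headers. All 11314 rows are protein-coding, and the higher group mean was at least 0.5003 FPKM. No steps of whole reads were found among values under 0.15 FPKM, so depth is unknown and no counting interval was computed.

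Where the mean over all libraries reached 0.5 FPKM, genes (11061, all 45 nucleolar genes among them) were tested on log2(FPKM + 1) with limma 3.58.1 (R 4.3.3, statmod 1.5.0; trend and robust moderation), adjusted by Benjamini-Hochberg over all of them at 0.05. The code was tested on simulated data, where 29.9% of changes of 0.5 on the log2 scale, 53.7% of changes of 1 and 92.4% of changes of 2 were called. Of the 129 calls there, 12 were false. Only 200 genes were changed, all of them away from low levels and far fewer than were called here. These rates may therefore not carry over to the real libraries. A gene that did not pass may still differ, and a call may be false. Under the naming rule, every nucleolar gene could be named; per-library values were due to FBL, NOP56, NOP58, DKC1, NOP10, NCL, NPM1, NOP2, BOP1, PES1 and WDR12, to the 3 genes of each subunit group with the smallest p, to all lower genes and to the 3 largest differences; 2 genes of each list were named by smallest p, and others after their values were seen. Members and lists were chosen with earlier results of these data known. Promoters are RefSeq (GRCh38.p14). Alternatives were pseudocounts of 0.1 and 0.01, no filter or 2 FPKM, median, quantile and non-mitochondrial scaling, no trend or robust moderation, library weights, a replicate block and leaving out each library.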

Additional observations from a re-analysis of the deposited data

How the results depend on the processing

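Among the 23 nucleolar genes described one by one, 16 alternatives gave 368 differences, of which 325 kept their direction and side of the threshold, 20 lost and 19 gained a call, and 4 changed sign. The sign turned for NOP10 after quantile normalization (0.0193), with weights per library (0.0260) and without titled SPIN1 replicate 3 (0.0158, beside a lowest of -0.0943 with 1 library left out), and for UTP14C with weights per library (-0.23). With weights per library the nucleolar genes gave 10 higher and 10 lower calls in place of 3 and 5. Added were DKC1, FBL, NOC4L, NOL6, NOP16, NPM1, RRP1B, RRP36, RRP7A, RRP9, UTP18 and WDR12. All genes then gave 3106 higher and 2304 lower, the median of the nucleolar genes was -0.0368 and SPIN1 differed by -1.87 (limma adjusted p = 0.0248). That fit leaned on titled SPIN1 replicate 2 (weight 3.57) and titled NC replicate 2 (3.12). The other libraries weighed from 0.314 (titled SPIN1 replicate 1) to 1.17 (titled NC replicate 3). After median scaling the median of the nucleolar genes was -0.0345. With 1 library left out, the calls among nucleolar genes ran from 1 to 5 higher and from 2 to 7 lower, and over all genes from 1128 to 2045 higher and from 641 to 1251 lower. Without titled NC replicate 2 there were 2 higher and 2 lower nucleolar genes, and without titled NC replicate 3 there were 1 and 2. Without titled SPIN1 replicate 3 the count was 1 higher, without titled SPIN1 replicate 2 it was 2 lower, without titled NC replicate 1 it was 3 lower, and without titled SPIN1 replicate 1 it was 5 higher. Over all genes 1265 higher and 736 lower calls were left without titled SPIN1 replicate 2, 1128 and 641 without NC replicate 2, and 1270 and 679 without NC replicate 3. The difference of SPIN1 ran from -2.03 (without titled NC replicate 1, limma adjusted p = 0.0301) to -0.653 (without titled NC replicate 3). Of all calls, 62.7% were higher, against 53.4% after median scaling and 50.4% after quantile normalization. The replicate block gave 5 higher and 6 lower nucleolar genes, adding NOP58, RRP7A and RRP9, beside 2048 higher and 1251 lower of all 11061 genes. Same-numbered libraries correlated in their deviations at 0.216, 0.0551 and 0.148 (0.1 in every pair was asked for). Titled NC replicate 2 correlated better with titled SPIN1 replicate 3 (0.0757) than with its own number. The libraries were therefore taken to share only a number. The causes were not tested.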
